A study of Mus musculus with 7 samples.

Results

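The ephrins, Slits and netrins and their receptors were examined in RNA from the medial prefrontal cortex of mice of the inbred strain 129SvEv, all male and wild-type, taken after retrieval of a remote memory. The members are the genes whose symbols in the authors' deposited table name an Eph receptor, an ephrin, a Slit, a Robo, a netrin, a netrin-G or an Unc5 receptor, together with Dcc and Neo1. They number 41 of the 17732 genes listed, and the rule that picks them uses their symbols only. There were 3 libraries labelled CFC and 4 labelled SC. The labels do not spell out either name, and give no age. All 7 libraries share the sex, strain, genotype and tissue. The deposited table holds 1 comparison of the groups and no value of a single library, so overlap between the groups could not be shown here. Neither the labels nor the header say which group is the numerator, so a difference is given by its sign in the table and neither group is said to be higher. A log2 difference below is the deposited log2 fold change, and the value after ± is its standard error, estimated by the authors over the libraries.

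These molecules are best known for steering growing axons. Eph receptors are tyrosine kinases on the cell surface that meet ephrins on a neighbouring cell, and both sides signal. The ephrin-A proteins are held in the membrane by a lipid anchor, whereas the ephrin-B proteins span it. Slits are secreted proteins that repel axons through Robo receptors. Netrin-1 attracts axons through Dcc and repels them through Unc5 receptors. In the adult cortex many of the same genes stay active and take part in dendritic spines, synapses and plasticity.

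No guidance gene passed the authors' test of a difference between the groups. In the authors' deposited table, 37 of the 41 members had an adjusted p-value, and 0 of the 37 were under 0.05 by the DESeq2-style Wald test with the authors' Benjamini-Hochberg adjustment, which leaves out genes with a low mean count. The background was 67 of 13060 genes, or 0.513%. Without adjustment, 5 members had a p-value under 0.05, which is 13.5% of the 37, beside 8.1% of all genes with an adjusted p-value. Ntng2 and Robo3 had a negative sign, beside 3.54% of all genes, and Efnb3, Robo1 and Unc5b a positive one, beside 4.56%. The lowest adjusted p-value of any member was 0.227 and the highest 0.999 in the authors' deposited table. Of the 37 log2 fold changes, 21 were positive and 16 negative, and 49.4% of all genes with an adjusted p-value were positive. Their median was 0.0069, beside -0.0017 over all those genes. The median size without regard to sign was 0.09 for the members and 0.07 for all genes.

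Most members were measured precisely enough to bound the difference. The 95% interval of the log2 fold change, computed from the standard error in the authors' deposited table, lay wholly inside a 1.5-fold change in either direction for 32 of the 37 members, or 86.5%, beside 87.9% of all genes with an adjusted p-value. The 5 others were Efna1, Efnb3, Robo3, Ntn4 and Unc5b. The smallest absolute Wald statistic of any gene under the threshold was 3.68. At that value a member would have needed a log2 fold change of 0.37 in size at the median standard error, from 0.21 for Neo1 to 1.31 for Unc5b. The plot of the differences with their intervals shows that the wide bars belong either to genes with few reads or to Efnb3, Robo3 and Unc5b.

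**Figure D1:**
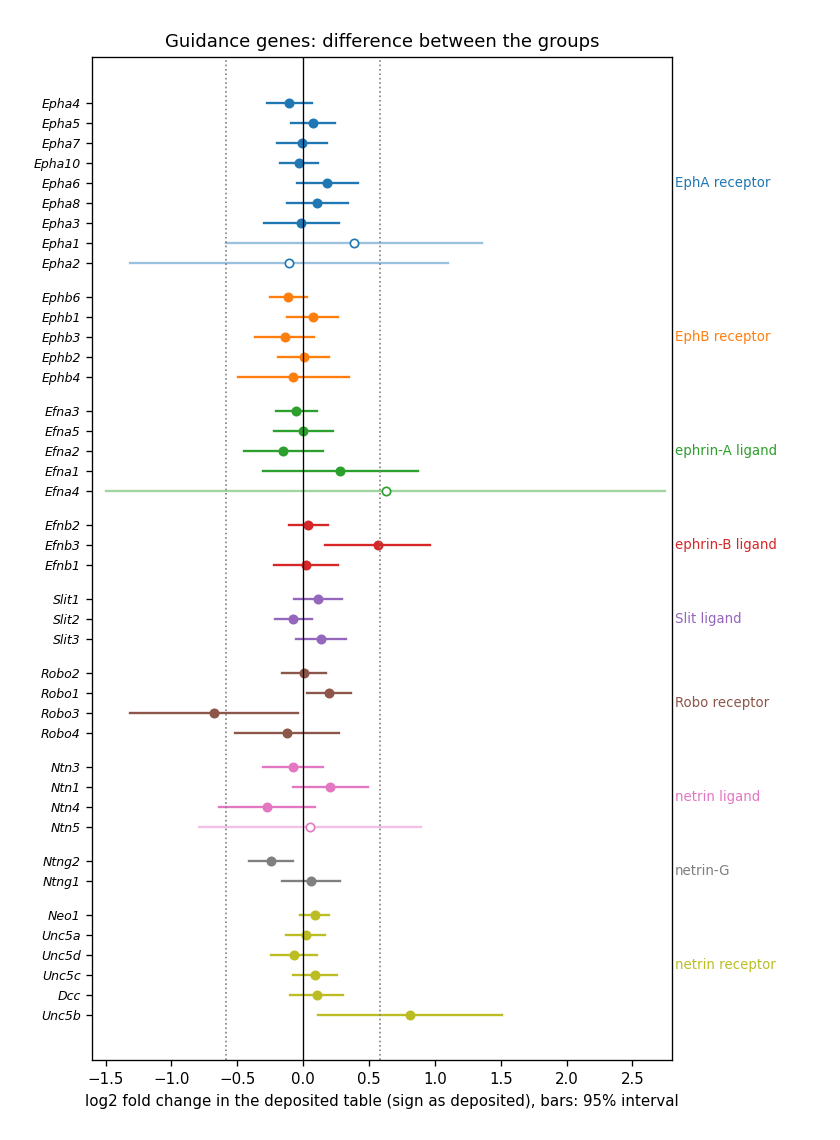
Log2 fold change of each of the 41 guidance genes (x axis, sign as in the authors' deposited table) with its 95% interval as a bar, grouped by family and ordered by mean count within it. Open circles are the 4 genes without an adjusted p-value, dotted lines mark a 1.5-fold change, and 32 of the 37 filled points have their whole bar between them.

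The guidance genes differed widely in abundance. Levels are given as the mean normalized count of the authors' deposited table, over all libraries, divided by the length of the annotated exons in kb, since a long transcript gives more reads. The highest was Ephb6, an Eph receptor whose kinase domain is inactive, at 1069 per kb, above 96.9% of the genes listed. Epha4, which binds ephrins of both classes, followed at 612 per kb. Unc5a was at 551, Efnb3 at 508 and Neo1 at 420 per kb. These 5 genes were also the first 5 when the longest transcript was used as the length. At the other end, Ntn5 was at 8.32, Epha1 at 3.40, Efna4 at 2.25 and Epha2 at 2.0 per kb. Per the authors' deposited table, those 4 had mean counts of 18.4, 13.4, 3.60 and 9.34 and no adjusted p-value, which was given only from a mean count of 34.9 upwards. The median level of the 41 genes was 85.3 per kb, beside 63.7 for all listed genes. By role, the median was 144 per kb for the 8 ephrins and 93.8 for the 14 Eph receptors, 158 for the 3 Slits and 77.0 for the 4 Robos, and 29.0 for the 4 secreted netrins and 71.7 for the 6 netrin receptors. The secreted netrins were the one family with no member above the median of all listed genes. Exons of 12 of the 41 members overlap those of another gene in GENCODE M21, by at most 23.4% of their bases. The spread of a level over libraries is not known here, so whether neighbours in this order differ was not tested.

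**Figure D2:**
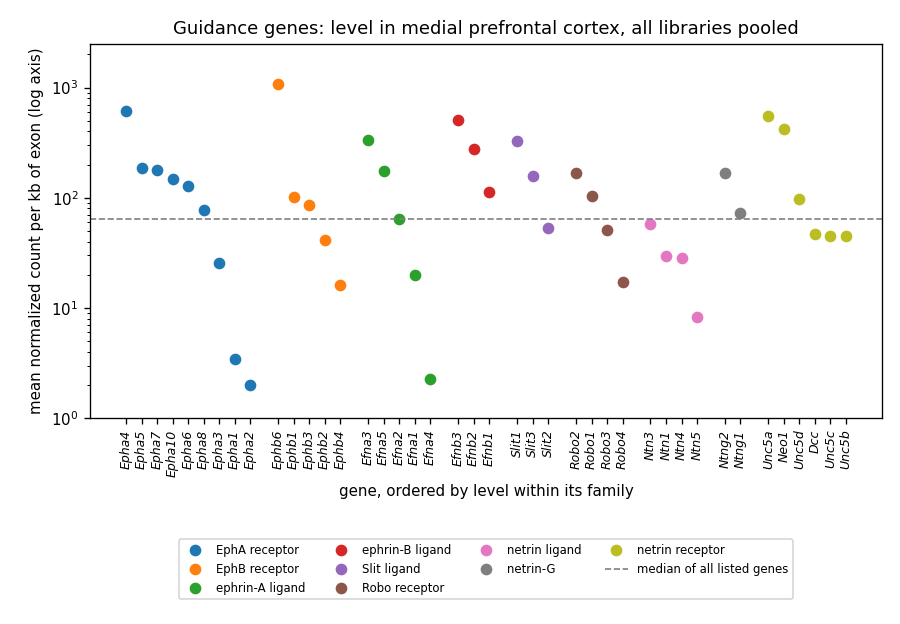
Level of each of the 41 guidance genes as the mean normalized count per kb of exon (y axis, log scale), over all libraries, ordered by level within its family. The dashed line is the median of all listed genes (63.7), and Ephb6 (1069) and Epha2 (2.0) are the highest and lowest points.

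Among the EphA receptors, which mainly bind ephrin-A ligands, all 7 with an adjusted p-value had intervals within a 1.5-fold change. Epha4 had a log2 difference of -0.10 ± 0.09 in the authors' deposited table (adjusted p = 0.938). Its interval ran from -0.28 to 0.07. Epha6 had the smallest p-value of the family, with a log2 difference of 0.18 ± 0.12 in the authors' deposited table (adjusted p = 0.838). Epha5, a receptor of forebrain neurons, stood at 0.08, and Epha7 at -0.0090 in the authors' deposited table. Epha8 and Epha3 stood at 0.11 and -0.01, and Epha10, whose kinase is also inactive, at -0.03 in the authors' deposited table. The family thus had 3 positive and 4 negative values, none of them larger in size than that of Epha6. Epha1 and Epha2, at counts too low for the authors' adjustment, had intervals from -0.58 to 1.36 and from -1.32 to 1.10, which leaves a change of 1.5-fold in either direction possible for Epha2 and a positive one for Epha1.

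The EphB receptors, which bind mainly ephrin-B ligands and some of which sit at excitatory synapses, also had small values. For Ephb6 the log2 difference was -0.11 ± 0.07 in the authors' deposited table (adjusted p = 0.826). Ephb3 was at -0.14 and Ephb1 at 0.07 in the authors' deposited table. Ephb2, a receptor that binds NMDA receptors at synapses, was at 0.0034 ± 0.10 in the authors' deposited table. Its interval, from -0.19 to 0.20, bounds a change in either direction well under 1.5-fold. Ephb4, best known from veins, was at -0.08 ± 0.22 in the authors' deposited table. All 5 EphB intervals lay within a 1.5-fold change.

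The ephrin-A ligands were split, with 2 positive and 2 negative values among the 4 with an adjusted p-value. Efna3, the most abundant ephrin-A at 337 per kb and known from astrocytes that contact spines, had a log2 difference of -0.05 ± 0.08 in the authors' deposited table (adjusted p = 0.994). Efna5, which helps to map thalamic axons onto the cortex, was at 0.0026 ± 0.11 in the authors' deposited table. Efna2 had the largest Wald statistic in size, at a log2 difference of -0.15 ± 0.15 in the authors' deposited table (adjusted p = 0.975). Efna1 was at 0.28 ± 0.30 at a mean count of 36.4, both from the authors' deposited table, and its interval from -0.31 to 0.87 was the widest of the 4. Efna4 had an interval from -1.49 to 2.75 at its mean count of 3.60, and no difference was detected for it. In GENCODE M21 on GRCm38, Efna1, Efna3 and Efna4 lie in 1 stretch of chromosome 3, between 89271733 and 89338028.

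The 3 ephrin-B ligands all had a positive sign, beside 49.4% of all genes with an adjusted p-value. Only Efnb3 had a value larger than its standard error. Efnb3, a ligand known as a midline barrier to corticospinal axons and as a myelin component that inhibits axon growth, had a log2 difference of 0.56 ± 0.20 in the authors' deposited table. This is a ratio of 1.48, with an interval from 1.12 to 1.95. That table gives it an unadjusted p of 0.00545 and an adjusted p of 0.272. Efnb3 lies on chromosome 11, from 69554092 to 69560205 on the minus strand of GRCm38, with 1 annotated transcript of 3183 bases and no exon shared with another gene. Efnb2, the most counted ephrin-B, was at 0.04 ± 0.08 in the authors' deposited table (adjusted p = 0.999). Efnb1 was at 0.02 ± 0.12 in the authors' deposited table.

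The Slits were measured well, with standard errors from 0.07 to 0.10. Slit1, the most abundant at 326 per kb, had a log2 difference of 0.11 ± 0.09 in the authors' deposited table (adjusted p = 0.932). Slit3 was at 0.13 ± 0.10 in the authors' deposited table (adjusted p = 0.883). Slit2 was at -0.07 ± 0.07 in the authors' deposited table. All 3 intervals lay within a 1.5-fold change.

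The values of their receptors covered a wider range. Robo1, a receptor through which Slits repel axons, had a log2 difference of 0.20 ± 0.09 in the authors' deposited table (unadjusted p = 0.0216, adjusted p = 0.483). Its interval from 0.03 to 0.36 bounds the difference to less than 1.5-fold. Robo2, the most abundant Robo at 167 per kb, was at 0.0069 ± 0.09 in the authors' deposited table (adjusted p = 0.999). Whether Robo1 and Robo2 differ from each other was not tested, since the 2 estimates come from the same libraries. Robo3, known from axons that cross the midline and a poor Slit binder in mammals, had the most negative log2 difference of the 37, at -0.68 ± 0.32 in the authors' deposited table. The unadjusted p was 0.0368 and the adjusted p 0.589 in the authors' deposited table, and its interval ran from -1.31 to -0.04. Robo4, the endothelial Robo, was at -0.13 ± 0.20 in the authors' deposited table. Robo3 and Robo4 are neighbours on chromosome 9 of GRCm38, where Robo4 ends at 37415115 on the plus strand and Robo3 spans 37415669 to 37433246 on the minus strand, with no shared exon base.

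Secreted netrins were low in this tissue. The most abundant, Ntn3, reached 57.4 per kb, and Ntn1, the classical guidance cue, 29.9 per kb. Ntn3 had a log2 difference of -0.08 ± 0.11 in the authors' deposited table (adjusted p = 0.994). Ntn1 was at 0.21 ± 0.14 in the authors' deposited table (adjusted p = 0.875). Ntn4, a laminin-related netrin of basement membranes, was at -0.28 ± 0.19 in the authors' deposited table (adjusted p = 0.859). Their intervals, from -0.08 to 0.49 for Ntn1 and from -0.64 to 0.09 for Ntn4, both include 0. Ntn5 shares 519 of its 2216 exon bases with a gene on the other strand and its mean count was low, at 18.4, so its reads cannot be assigned with certainty without the strand setting.

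The netrin-Gs are lipid-anchored relatives that bind netrin-G ligands across the synapse and not Dcc. Ntng2 had the smallest p-value of all members. Its log2 difference was -0.25 ± 0.09 in the authors' deposited table (unadjusted p = 0.00372, adjusted p = 0.227). This is a ratio of 0.843, with an interval from 0.751 to 0.946. Its standard error was 0.992 times that typical of genes of similar mean count, so the small p-value did not come with an unusual error. Ntng2 lies on chromosome 2, from 29194541 to 29253005 on the minus strand of GRCm38. A noncoding transcript on the same strand shares 558 of its 3990 exon bases, and reads from those bases cannot be assigned by strand. Ntng1 was at 0.06 ± 0.11 in the authors' deposited table (adjusted p = 0.999).

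Of the 6 netrin receptors, 5 had a positive sign, beside 49.4% of all genes with an adjusted p-value. The value of Unc5a was smaller than its standard error of 0.08. Neo1, a Dcc relative that also binds repulsive guidance molecules, was the most precisely measured member, with a log2 difference of 0.09 ± 0.06 in the authors' deposited table (adjusted p = 0.829). Its interval from -0.02 to 0.20 bounds the difference far inside a change of 1.5-fold. Dcc was at 0.10 ± 0.10 in the authors' deposited table (adjusted p = 0.973). Unc5a and Unc5c were at 0.02 and 0.09, and Unc5d, which also binds the adhesion protein Flrt2, at -0.07 in the authors' deposited table. Unc5b, a netrin receptor of blood vessels as well as neurons, had the highest log2 difference of the 37 members, at 0.81 ± 0.36 in the authors' deposited table. The table lists an unadjusted p of 0.0224 and an adjusted p of 0.488, as the authors deposited it. The interval on the ratio scale ran from 1.08 to 2.85. Unc5b lies on chromosome 10, from 60762593 to 60831581 on the minus strand of GRCm38, and shares no exon base with another gene.

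Among the 37 members with an adjusted p-value, the 3 largest differences came with the 3 largest errors for their abundance. The standard error of each gene was divided by the running median over genes of similar mean count. This ratio was 3.0 for Unc5b, 2.99 for Robo3 and 2.95 for Efnb3, and at most 1.49 (Epha4) for the other 34 members. Ratios above 2 were found in 8.11% of the members and 1.85% of all genes with an adjusted p-value. The standard error carries the spread between libraries of a group besides the reads counted, but the libraries could not be viewed singly. These 3 genes stand, where standard errors are drawn against mean counts, above the main band.

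**Figure D3:**
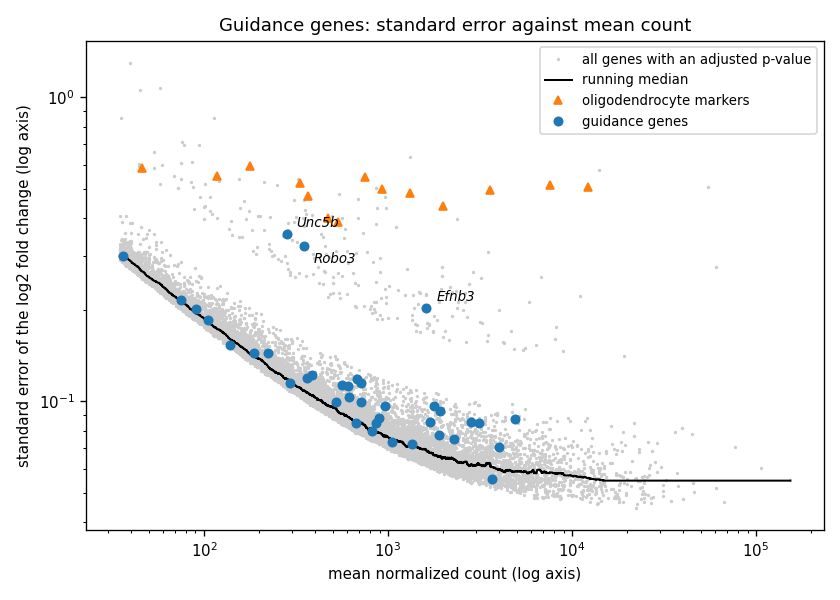
Standard error of the log2 fold change (y axis) against mean normalized count (x axis), both on log scales, for the 13060 genes with an adjusted p-value (grey), the 37 guidance genes among them (blue circles) and 14 oligodendrocyte markers (orange triangles), with the running median as a line. Unc5b, Robo3 and Efnb3 lie about 3-fold above the line, between the other guidance genes and most of the oligodendrocyte markers.

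Markers of several cell types also carried a sign in these data. Their lists were chosen with earlier results of these data known, and their counts stand beside 0.513% of all genes under the adjusted threshold and 8.1% under an unadjusted p-value of 0.05. All 14 oligodendrocyte markers, among them Mbp and Mog, were positive in the authors' deposited table. Their median log2 difference was 1.17 and their mean counts ran from 46.0 to 12290. None of the 14 had an adjusted p-value under 0.05, and 13 had an unadjusted one under 0.05 in the authors' deposited table. Their error ratio ranged from 2.18 to 9.09, with a median of 5.55. All 12 deep-layer markers were positive, with a median of 0.53 and 6 under the adjusted threshold, and 8 of 9 upper-layer markers were negative, with a median of -0.27 and 2 (Rasgrf2 and Otof) under it, in the authors' deposited table. Of 10 striatal markers, 9 had an adjusted p-value, and all 9 were positive, with a median of 0.70, a median error ratio of 3.35 and 1 (Drd1) under the threshold, in the authors' deposited table. All 10 endothelial markers were negative, with a median of -0.16 and none under the threshold, in the authors' deposited table. The positive signs of Efnb3, Robo1 and Unc5b are those of the oligodendrocyte, deep-layer and striatal lists, among others. Among members tied above to blood vessels, Ephb4 and Robo4 had the negative sign of the endothelial list, at values smaller than their standard errors. Unc5b had the opposite sign. These genes are not a full list of vessel genes. Efnb2 and Efna1, also found in vessels, were positive, at 0.04 ± 0.08 and 0.28 ± 0.30 in the authors' deposited table. Both values were also smaller than their standard errors. The negative signs of Ntng2 and Robo3 are those of the upper-layer and endothelial lists, among others. The part of these cell types in the guidance gene values was not tested. In bulk tissue, fewer cells of a type and less RNA per cell cannot be told apart. The astrocyte, microglia, oligodendrocyte precursor, interneuron and excitatory lists had medians between -0.13 and 0.11. Of their genes, 1, Camk2a at -0.29, was under the threshold in the authors' deposited table. Among those with an adjusted p-value, 6 of 8 astrocyte, 6 of 7 microglia and 4 of 7 interneuron markers were negative. Positive signs were seen in 6 of 8 oligodendrocyte precursor and 4 of 6 excitatory markers. The excitatory cortical markers Slc17a7, Tbr1, Neurod6, Neurod2 and Camk2a all had mean counts of 2316 or more in the authors' deposited table. Pde10a, of the striatal list, had 2354 there. These means over all libraries therefore cannot show whether any library held tissue from outside the labelled region.

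The proteins that carry guidance signals inside the cell, or bind the same receptors, showed no difference that passed either. Of 49 partners in the 3 lists, 47 had an adjusted p-value, 26 positive and 21 negative. By the Wald test in the authors' deposited table, 0 of the 47 were under 0.05, beside 0.513% of all genes with an adjusted p-value. Without adjustment, 9 had a p-value under 0.05, of which 5 were positive, or 19.1% beside 8.1% of all genes. The median log2 fold change was 0.0030, and 46 of the 47 intervals lay within a 1.5-fold change.

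For the Eph and ephrin pathway, 12 of 20 partners were positive and 8 negative. Abl2, a kinase that acts on the actin cytoskeleton, had a log2 difference of 0.18 ± 0.06 in the authors' deposited table (adjusted p = 0.189). Sipa1l1, a Rap regulator at the postsynaptic density, was at -0.15 ± 0.06 in the authors' deposited table (adjusted p = 0.348). Vav3, a guanine nucleotide exchange factor, was at -0.44 ± 0.18 in the authors' deposited table (adjusted p = 0.433). Kalrn and Ngef, exchange factors through which Eph receptors reach the actin of spines, were at -0.03 and -0.07 in the authors' deposited table. None of these values passed the adjusted threshold.

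For Slit and Robo, 5 of 11 partners with an adjusted p-value were positive. Sos1, an exchange factor recruited to Robo, was at 0.16 ± 0.07 in the authors' deposited table (adjusted p = 0.445). Srgap1, a GTPase-activating protein that binds the Robo tail, was at 0.22 ± 0.11 in the authors' deposited table (adjusted p = 0.647). Enah, an actin regulator, was at 0.10 in the authors' deposited table (adjusted p = 0.759). Nell2, a secreted ligand of Robo3, was at -0.08 ± 0.06 in the authors' deposited table (adjusted p = 0.895).

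For the netrins, 9 of 17 partners with an adjusted p-value were positive. Maged1, a binding partner of Unc5 receptors, was at 0.13 ± 0.06 in the authors' deposited table (adjusted p = 0.554). Flrt2, a ligand of Unc5d, was at -0.16 ± 0.08 in the authors' deposited table (adjusted p = 0.636). The ligands of the netrin-Gs were close to 0 or small, with Lrrc4c, the partner of Ntng1, at -0.03 and Lrrc4, the partner of Ntng2, at -0.09 ± 0.07 in the authors' deposited table. The plot of the lists shows the guidance genes and their partners centred near 0, beside marker lists of which most are shifted.

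**Figure D4:**
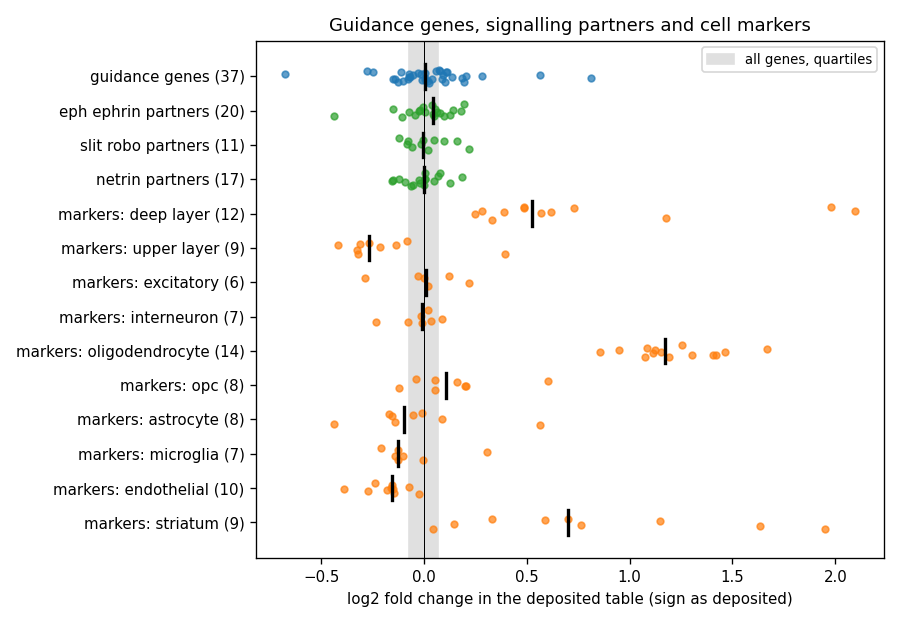
Log2 fold changes (x axis, sign as in the authors' deposited table) of genes with an adjusted p-value in each list, with the number of genes in brackets, the list's median as a black bar and the quartiles of all genes as a grey band. The medians of the guidance genes (0.0069), of the partner lists and of the interneuron (-0.01) and excitatory (0.0094) markers lie within the band. Those of the oligodendrocyte (1.17), striatal (0.70), deep-layer (0.53) and upper-layer (-0.27) markers lie outside it. So do those of the endothelial (-0.16), microglia (-0.13), oligodendrocyte precursor (0.11) and astrocyte (-0.10) markers.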

How the data were processed

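Polyadenylated RNA was sequenced, per the labels, from 7 libraries (KAPA mRNA HyperPrep, 100 ng of RNA). Trimmomatic, Subread, DESeq2 and the build mm10 are named, without versions, in the submitters' processing notes, and the annotation and strand setting are not given in the sources used here. The authors deposited 1 table of results. Per the file headers it gives a mean normalized count (a signal averaged over libraries by the authors), a log2 fold change with its standard error, a score (the Wald statistic), and unadjusted and adjusted p-values. The depth of single libraries is unknown. Nothing says whether libraries came from separate animals, so the p-values bear on these libraries only and may not extend to animals. No count model could be refitted.

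From these values, 95% normal intervals, alternative Benjamini-Hochberg adjustments and a running median of the standard error over 201 genes were computed. The code ran with Python 3.11.15 and scipy 1.17.1 and was checked on simulated data. The simulation drew normal errors of the deposited size. It therefore could not show how the intervals behave with 3 and 4 libraries. Exon lengths and positions came from GENCODE M21 (GRCm38), which held all 41 members. Members, lists and tests were chosen with earlier results of these data known. Full statistics are given for members with an unadjusted p-value under 0.05 and, per family, for the member with the highest mean count and that with the largest Wald statistic in size, others more briefly. Of the partners, the 3 with the smallest p-values per list are given in full, except 1 that is not reported here. Kalrn, Ngef, Nell2, Lrrc4 and Lrrc4c were named besides these for their known roles, after their values had been seen. The alternatives were other thresholds, filters, adjustments, a null of a 1.2-fold change and another exon length.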

Additional observations from a re-analysis of the deposited data

How the results depend on the processing

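No guidance gene came under the threshold with a threshold of 0.1, no filter on the mean count, a mean count of at least 100, a Bonferroni adjustment, an adjustment over the listed genes or a null of a change of at most 1.2-fold, and 5 did at an unadjusted p-value under 0.05. Over all genes, the count of 67 became 101 at a threshold of 0.1, 21 with Bonferroni, 2 with the 1.2-fold null and 1058 unadjusted, each laxer or stricter by construction. For the 17 named members, 0 of 51 alternative adjusted p-values of the Wald test were under 0.05, the lowest being 0.227. They came from dropping the filter, the 1.2-fold null and a standard error of at least the typical size. None of these can lower a member's unadjusted p-value, so this count was nearly fixed in advance and adds no support. The median log2 fold change of the members stayed between 0.0069 and 0.02. The other alternatives kept the counts of signs, of narrow intervals and of the highest levels within 1.5 times their value. No paired analysis was possible because single libraries have no values in the table. Nor could any library be left out, and whether 1 library sets any value here was not tested.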

Other observations

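Draxin, a secreted protein that binds netrin-1 and Dcc, had the largest log2 difference of the netrin partners, at 2.51 ± 1.27 (standard error) in the authors' deposited table. Its mean count of 13.0 was too low for an adjusted p-value there, and its 95% interval ran from 0.02 to 5.01, with an unadjusted p of 0.0481. It was named after its values had been seen.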
